A study of Arabidopsis thaliana with 12 samples.

Results

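The comparison described here set the gra3-D line of Arabidopsis thaliana directly against the gra1-D line, using the 3 arrays of each, which are 6 of the 12 arrays in the series. Both lines are grandifolia-D mutants, which the title of the series describes as carrying a duplicated piece of chromosome. Both carried raised transcript levels over the lower end of chromosome 4, but only gra3-D of the 2 had raised levels from AT4G32830 to AT4G33500. This stretch held 61 of the 20777 measured loci. It was kept apart from the remaining 20716 loci so that the similarity of the lines could be measured over the rest of the genome. The bounds of the stretch had been read from these same arrays, so differences within it are given as a description and without a p-value.

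All plants were Col-0 seedlings of growth stage 1.03, raised in vitro on MS medium at 22 °C, of which the vegetative part was taken; they were kept under 16 h of light and 8 h of dark. The 4 groups were wild type, gra1-D, gra2-D and gra3-D, each with 3 biological repeats hybridised to the ATH1 GeneChip, a 1-colour oligonucleotide array. Wild type and gra2-D entered the fit as references. The labels give neither the zygosity of the mutants nor the number of seedlings per repeat, and each mutant is a single line.

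A duplicated chromosome segment adds a further copy of every gene inside it. Where transcription follows gene copy number, all genes of the segment are raised by a similar factor, whereas genes elsewhere can move only as indirect responses or through changes of their own. Lines whose duplications begin at different places on the same chromosome therefore share most of their extra genes and differ by a defined block.

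Values are log2 expression after robust multi-array averaging (RMA), so a difference of 1 is a 2-fold difference. A locus was called when the adjusted p of limma, fitted to all 12 arrays and adjusted by Benjamini-Hochberg over the 20777 loci, was below 0.05. A locus was counted as expressed when its mean over the 12 arrays was at least 6, and values below 5 were taken as close to background. The medians of the 12 arrays lay between 6.36 and 6.43, and array pairs of a group correlated at 0.995 to 0.997 across loci. The number of arrays limits the precision, and the median standard error (SE) of a difference between the lines was 0.0886 on the log2 scale.

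The stretch held nearly all loci that were called between the lines. Of the 20777 loci, 46 were called higher in gra3-D (0.221%) and none lower, with 801 loci at an unadjusted p below 0.05 (3.86%). The stretch held 44 of these 46, which were 41 of its 43 expressed loci and 3 of the 18 below 6. Because the same contrast fixed the bounds, nothing is read from that share. The median difference over the 43 expressed loci was 0.94, or 1.92-fold, and their range was 0.55 to 1.28, or 1.46-fold to 2.42-fold. In each of the 43 the gra3-D arrays lay above the gra1-D arrays without overlap, as they did for 4.14% of all loci. The level filter itself favours raised loci, since AT4G32870 and AT4G33150 passed it only through the groups in which they were raised. For the 41 loci with means of at least 6 in both wild type and gra1-D the median was also 0.94. Since RNA came from whole shoots, a change in transcript per cell and a change in the number of expressing cells cannot be told apart here or below.

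Each array gave the same picture. Per array, the median difference from the wild-type mean was taken over the expressed loci of the stretch. The same median over expressed loci outside AT4G31170 to the end of chromosome 4 was subtracted. This shift was -0.03, -0.01 and 0.01 on the gra1-D arrays and 0.92, 0.91 and 0.87 on the gra3-D arrays. In means this was -0.0097 ± 0.021 (SD, n = 3) against 0.90 ± 0.024 (SD, n = 3). The gra1-D arrays were thus at the wild-type level of 0.0016 ± 0.029 (SD, n = 3), and the gra3-D arrays at the gra2-D level of 0.89 ± 0.038 (SD, n = 3).

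**Figure D1:**
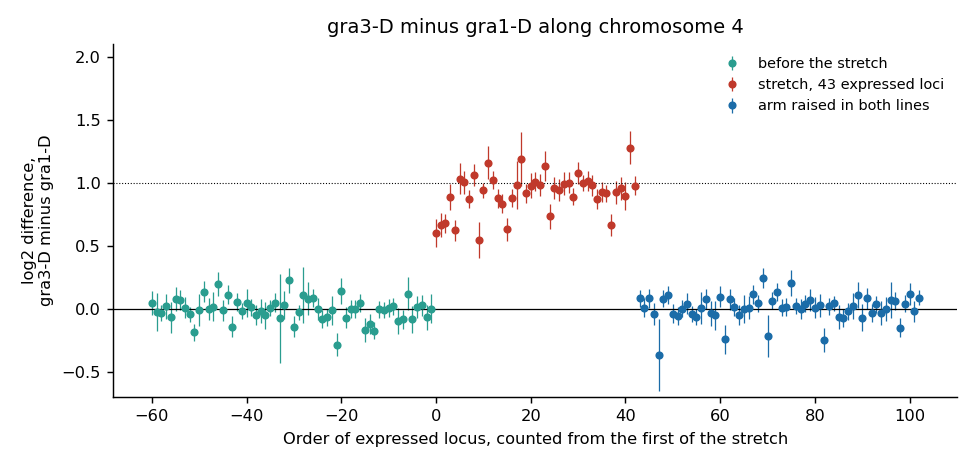
Log2 difference gra3-D minus gra1-D (vertical axis) for expressed loci in their order along chromosome 4, counted from the first of the stretch (horizontal axis); bars are the SE and the dotted line marks a 2-fold difference. The 43 expressed loci of the stretch sit between 0.55 and 1.28, while the loci before and after it scatter about 0.

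The loci at either edge of the block show where its bounds were set, and are no test of them. VTE1 (AT4G32770), the tocopherol cyclase of vitamin E synthesis, is the last expressed locus before the stretch and read 8.16, 8.27 and 8.36 in gra1-D and 8.10, 8.22 and 8.47 in gra3-D. Its difference was 0.00 ± 0.11 (SE). AUR1 (AT4G32830), the first locus of the stretch, differed by 0.60 ± 0.11 (SE), and AT4G33500, the last, by 0.97 ± 0.075 (SE). DHS2 (AT4G33510), a DAHP synthase of the shikimate pathway and the first locus beyond, read 11.7, 11.6 and 11.7 in gra1-D and 11.8, 11.7 and 11.7 in gra3-D, a difference of 0.08 ± 0.069 (SE). The 20 expressed loci before the stretch had a median difference of -0.0045 and the 20 after it 0.0011, and none of these 40 loci was called.

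The stretch holds several regulators of division and development. AUR1 encodes a mitotic Aurora kinase. It read 7.29, 7.26 and 6.91 in gra1-D and 7.83, 7.84 and 7.60 in gra3-D. The lines did not overlap, but at 1.52-fold the difference was among the 3 smallest of the expressed loci. HB-8 (AT4G32880), an HD-ZIP III transcription factor of the procambium, read 6.33, 6.24 and 6.12 in gra1-D and 7.01, 6.75 and 6.80 in gra3-D, or 0.62 ± 0.083 (SE). GATA9 (AT4G32890), a GATA-type transcription factor, differed more, by 1.03 ± 0.12 (SE), with 6.79, 6.65 and 6.75 against 8.05, 7.69 and 7.53. ATH1 (AT4G32980), a BELL homeodomain transcription factor that shares its name with the array, differed by 0.87 ± 0.073 (SE), with 8.20, 8.15 and 8.20 in gra1-D against 8.97, 9.02 and 9.19 in gra3-D. None of these 4 regulators was called between gra1-D and wild type. SLOMO (AT4G33210), an F-box protein, differed by 0.94, and the histone deacetylase gene HDA14 (AT4G33470) by 0.95.

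Receptor and signalling genes form another group of members. BAK1 (AT4G33430), the receptor kinase that serves as coreceptor in brassinosteroid and immune signalling, read 7.84, 7.86 and 7.92 in gra1-D and 8.86, 8.79 and 8.71 in gra3-D. Its difference was 0.91 ± 0.065 (SE), or 1.89-fold, with a clear gap between the lines. ADR1-L1 (AT4G33300), a helper NLR of plant immunity, differed by 1.08 ± 0.089 (SE), from 8.00, 7.97 and 8.02 to 9.06, 9.12 and 9.04. CBL10 (AT4G33000), a calcineurin B-like calcium sensor, differed by 0.83 and FAB1A (AT4G33240), a phosphatidylinositol 3-phosphate 5-kinase, by 0.999. EDA39 (AT4G33050), which encodes a calmodulin-binding protein, had the second largest difference, 1.19 ± 0.22 (SE). Its gra3-D arrays were widely spread, at 7.39, 7.82 and 8.20 against 6.93, 6.48 and 6.43 in gra1-D.

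Enzymes of several pathways lie in the block. GLDP1 (AT4G33010), the P-protein of the glycine decarboxylase complex in photorespiration, was the most highly expressed locus of the stretch. It read 12.6, 12.4 and 12.7 in gra1-D and 13.2, 13.1 and 13.3 in gra3-D, a difference of 0.63 ± 0.091 (SE) or 1.55-fold. SQD1 (AT4G33030), which makes the sulfoquinovose head group of plastid sulfolipid, differed by 0.88 ± 0.071 (SE), from 9.98, 9.93 and 9.99 to 10.9, 10.8 and 10.9. GAMMA-VPE (AT4G32940), a vacuolar processing protease, had the third largest difference, 1.16 ± 0.13 (SE), from 10.2, 10.1 and 10.1 to 11, 11.4 and 11.5. None of these 3 genes overlapped between the lines. PFK6 (AT4G32840), a phosphofructokinase of glycolysis, differed by 0.66, and AT4G33150, the LKR/SDH locus of lysine breakdown, by 1.13. The pectin methylesterase gene PME44 (AT4G33220) differed by 0.99, the aminopeptidase gene APM1 (AT4G33090) by 1.01 and FLDH (AT4G33360), a farnesol dehydrogenase, by 1.01.

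**Figure D2:**
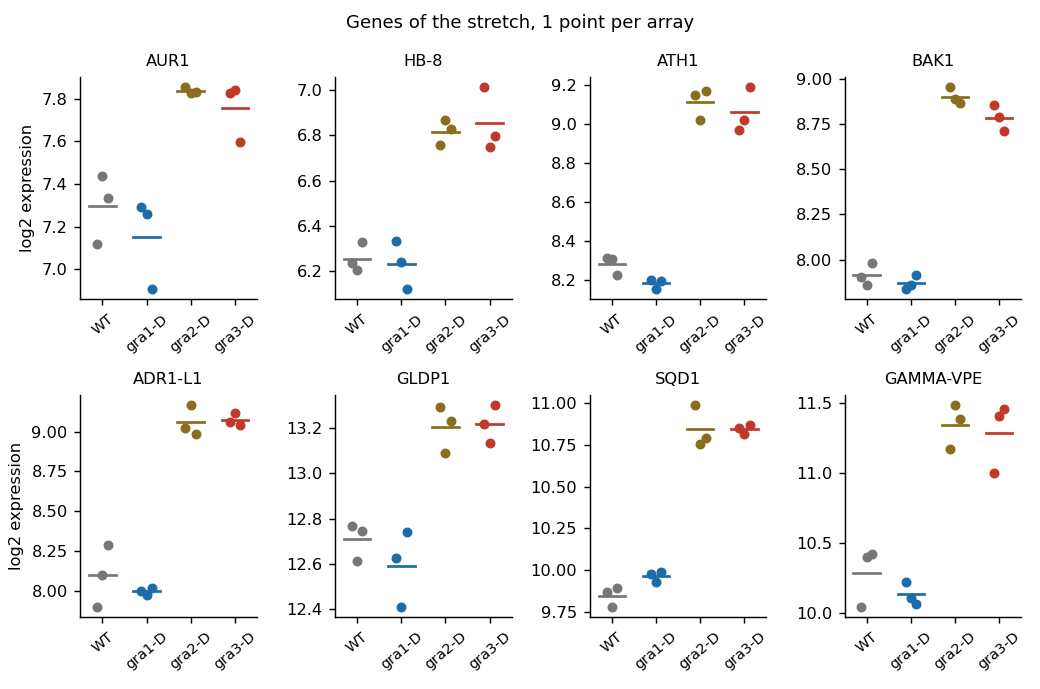
Log2 RMA level (vertical axis) of 8 genes of the stretch on each array, by group (horizontal axis); points are single arrays and bars are group means. In every panel the 3 gra3-D arrays lie above the 3 gra1-D arrays, with differences from 0.60 for AUR1 to 1.16 for GAMMA-VPE.

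Further members act in RNA processing, translation and cell structure. The poly(A) polymerase gene nPAP (AT4G32850) differed by 0.68, and EIF3K (AT4G33250), a subunit of translation initiation factor eIF3, by 0.89. The plastid import component Tic22-IV (AT4G33350) differed by 0.998, the myosin XI-I (AT4G33200) by 0.96, the signal peptide peptidase-like gene SPPL1 (AT4G33410) by 0.92 and the ABC protein gene ABCI10 (AT4G33460) by 0.92. Together, 31 of the 43 expressed loci differed by between 0.8 and 1.1, and the quartiles were 0.87 and 1.

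A few loci departed from the common factor by more than their own error. The 95% confidence interval lay below the median of 0.94 for 8 loci, namely AUR1, PFK6, nPAP, HB-8, AT4G32920, GLDP1, AT4G33180 and AT4G33440, and above it for AT4G33490. It included the median for the other 34. AT4G32920 had the smallest difference of the expressed loci, 0.55 ± 0.14 (SE), with 6.47, 6.22 and 6.47 against 6.95, 6.84 and 7.01. AT4G33490 had the largest, 1.28 ± 0.13 (SE), with 7.28, 7.31 and 7.19 against 8.48, 8.67 and 8.46. AT4G32920 and AT4G33040 were the 2 expressed loci that missed the threshold. AT4G33040 read 6.58, 6.50 and 6.76 in gra1-D and 7.11, 7.53 and 8.14 in gra3-D, a wide spread that gave an SE of 0.19.

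The gra2-D line gave a further reading of the same loci. Its difference from wild type shares no array with the difference between gra3-D and gra1-D. All 43 expressed loci were called higher in gra2-D than in wild type, against 5.24% of all loci, with a median of 0.84. The bounds were read from the arrays of this series and the level filter includes gra2-D, so nothing is read from that count. Across these 43 genes, which are not independent replicates, the difference between the lines and that of gra2-D from wild type correlated with a Pearson r of 0.57 and a Spearman rho of 0.45. Of the 8 loci below the median between the lines, AUR1, HB-8, GLDP1 and AT4G33440 stood at 0.54, 0.56, 0.50 and 0.64 in gra2-D. The other 4, nPAP, AT4G33180, AT4G32920 and PFK6, stood at 0.71, 0.72, 0.78 and 0.80 there, nearer to its median. AT4G33490, highest between the lines, was at 1.89 in gra2-D, whereas AT4G32915, at 1.06 between the lines, was at 0.42. EDA39 and AT4G33040 stood at 1.66 and 1.62 in gra2-D. Between gra3-D and gra2-D none of the 61 loci was called, against 0.89% of all loci, and 5 had an unadjusted p below 0.05. The differences of the expressed loci between those 2 lines ran from -0.33 to 0.29 with a median of -0.00055. The share of 0.89% was 185 loci, of which 103 lay from AT4G31170 to AT4G32810, a block raised only in gra2-D. Outside the raised segments 80 of 20014 loci were called between gra3-D and gra2-D.

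The 18 loci of the stretch below a mean of 6 showed a median difference of 0.15. Of these, 15 averaged below 5, where the median was 0.075. They included the zinc transporter gene ZIP9 (AT4G33020) at -0.03, MYB69 (AT4G33450) at 0.08 and the glucuronosyltransferase gene PGSIP3 (AT4G33330) at 0.21. The 9 loci of the stretch whose arrays overlapped between the lines were all in this low group. At higher levels the median difference changed little, with 0.98 for 17 loci between 6 and 8, 0.93 for 20 between 8 and 10, and 0.98 for 5 between 10 and 12. The 3 loci between 5 and 6 had a median of 0.54, and GLDP1, alone above 12, stood at 0.63.

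Between gra1-D and wild type, few loci of the stretch were called. Over the 43 expressed loci the median difference of gra1-D from wild type was -0.04, without the subtraction used for the shifts. Among expressed loci outside the raised segments of chromosome 4, 607 of 10775 were called in that comparison. Over all loci, which include the raised arm, it was 5.58%. Within the 43 expressed loci of the stretch, 3 were called, all lower. These were AT4G32910 at -0.27, AT4G32915 at -0.50 and Tic22-IV at -0.26. For these loci the difference between the lines therefore exceeded that between gra3-D and wild type.

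Below the stretch, from AT4G33510 to the end of the chromosome arm, both lines were raised, and by a similar amount. The shift of this shared arm was taken over its expressed loci as for the stretch. It was 0.91, 0.89 and 0.90 on the gra1-D arrays and 0.90, 0.90 and 0.91 on the gra3-D arrays. The means were 0.90 ± 0.011 and 0.91 ± 0.0064 (SD, n = 3 each), both 1.87-fold. The difference was 0.0041 with a 95% confidence interval of -0.016 to 0.025. A two-sided exact permutation test over the arrays (n = 3 per line) gave p = 0.6, where 20 splits allow no p below 0.1.

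Single genes of the shared arm were also alike. None of its 561 loci was called, against 0.00965% of all loci outside the stretch, a share so low that the lack of calls says little. At an unadjusted p below 0.05 there were 23 (4.10%, against 3.62% outside the stretch). For 95.9% of the 561 the 95% confidence interval of the difference lay within 1.5-fold in either direction. The arm contains growth regulators. ANT (AT4G37750), an AP2-type transcription factor that promotes organ growth, read 8.16, 8.17 and 7.90 in gra1-D and 8.14, 8.10 and 8.14 in gra3-D, a difference of 0.05 ± 0.088 (SE). GRF2 (AT4G37740), a growth-regulating factor, differed by -0.01 ± 0.067 (SE). CYCD3;1 (AT4G34160), a cyclin D that promotes entry into the cell cycle, read 8.72, 8.81 and 8.53 against 8.56, 8.38 and 8.38. Its difference of -0.25 ± 0.098 (SE) did not pass after adjustment by limma (unadjusted p = 0.024, adjusted p = 1), and the lines overlapped.

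The most extreme difference in the arm was at AT4G36700, -0.70 ± 0.75 (SE), which did not pass (limma adjusted p = 1). By the ratio of difference to SE the highest in gra3-D was AT4G38540, at 0.50 ± 0.14 (SE), with 6.86, 6.46 and 6.64 against 7.14, 7.26 and 7.07 (limma adjusted p = 0.58). AT4G38820 and AT4G33960 followed at 0.27 and 0.25, the former below 5 in both lines. The lowest was AT4G38950, at -0.46 ± 0.13 (SE), with 7.99, 7.85 and 7.99 against 7.43, 7.30 and 7.72 (limma adjusted p = 0.617). AT4G37850 at -0.22 and AT4G34880 at -0.28 followed, each below 5 in both lines. Other arm genes with a wide spread between arrays were PSAT (AT4G35630), a phosphoserine aminotransferase of serine synthesis, at -0.24 ± 0.62 (SE), and BT5 (AT4G37610), a BTB-TAZ protein gene, at 0.49 ± 0.29 (SE). The arrays of the lines overlapped for both. MYB4 (AT4G38620), a repressor of phenylpropanoid genes, differed by -0.04.

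Above the stretch, the 141 loci from AT4G31170 to AT4G32810, were raised as a block only in gra2-D. The mean shift over the expressed loci, taken as for the stretch, was 0.012 in gra1-D, -0.018 in gra3-D and 0.92 in gra2-D. None of the 141 was called between gra3-D and gra1-D, against 0.00965% of all loci outside the stretch. In the comparisons with wild type, 7 were called for gra1-D and 8 for gra3-D. Over all loci, which include the raised arm, 5.58% and 6.11% were called in those comparisons. Among the 20014 loci outside the raised segments 749 and 801 were called.

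Over all 20716 loci outside the stretch the lines differed little. The median absolute difference was 0.0585, or 1.04-fold, and 95% of loci differed by less than 0.20, or 1.15-fold. The 95% confidence interval lay within 1.5-fold for 20205 loci (97.5%). At least 1.5-fold differences were seen at 20 loci, and at least 2-fold differences at 3. Among the 20014 loci outside all raised segments, 19 differed by at least 1.5-fold between the lines, whereas 188 did so between gra1-D and wild type and 185 between gra3-D and wild type. At an unadjusted p below 0.05 there were 749 loci outside the stretch (3.62%). The arrays of the lines did not overlap for 1765 of the 20716 loci (8.52%), against 8.75% of all loci.

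**Figure D3:**
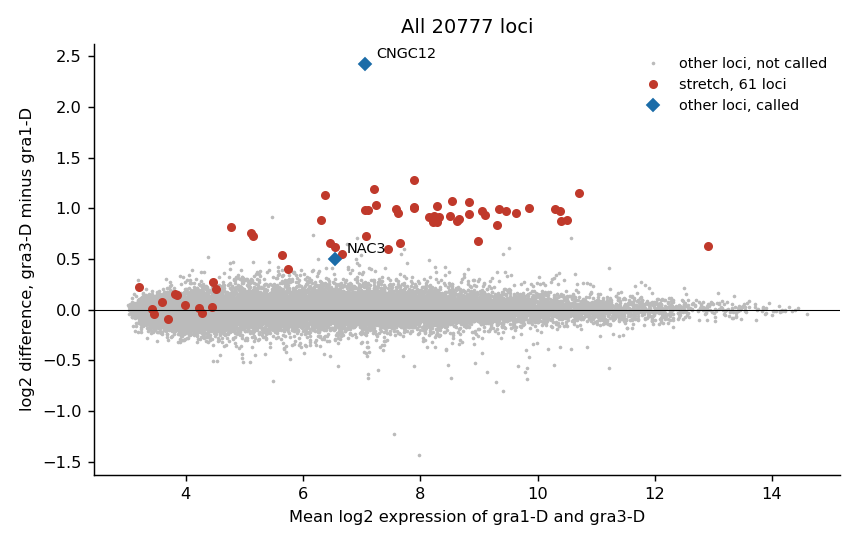
Log2 difference gra3-D minus gra1-D (vertical axis) against the mean log2 level of the 2 lines (horizontal axis) for all 20777 loci; red points are the stretch and blue diamonds the called loci outside it. Outside the stretch 95% of loci lie within 0.20 of 0, and CNGC12 stands apart at 2.43.

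The spread between 2 arrays was of similar size within and between the lines. Over the 20014 loci outside the raised segments, the SD of the difference between 2 arrays was 0.185 to 0.193 within gra1-D and 0.174 to 0.219 within gra3-D. For the 9 pairs made of 1 array from each line it was 0.150 to 0.210, lowest for replicate 2 of both lines. Arrays of one line always differ in replicate number, so variation between replicates enters every pair within a line. These ranges therefore do not show that the lines are the same. With a block on replicate number in the fit, 1026 loci outside the stretch had an unadjusted p below 0.05, against 749 without it. Pairs of a wild-type array with a gra1-D or gra3-D array gave 0.202 to 0.250. No other run of 20 neighbouring expressed loci reached a like median difference, and shorter runs were not scanned. Among 11064 windows of 20 expressed loci that held none of the stretch, the median difference ran from -0.058 (AT1G16280 to AT1G16780) to 0.10 (AT3G60240 to AT3G60530). The 24 windows that lay wholly in the stretch had medians of 0.88 to 0.98.

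Outside the stretch 2 loci were called (0.00965%), both higher in gra3-D. CNGC12 (AT2G46450) encodes a cyclic nucleotide-gated ion channel known from studies of immunity and cell death. It read 5.73, 5.89 and 5.92 in gra1-D and 8.32, 8.15 and 8.36 in gra3-D. Wild type read 8.60, 8.20 and 8.43, and gra2-D 8.40, 7.96 and 8.38. The gra1-D arrays stood apart from all 9 others, and gra3-D lay within the range of wild type and gra2-D. The difference of 2.43 ± 0.12 (SE) was 5.39-fold (limma adjusted p = 7.9e-07), with all 3 gra3-D arrays above all 3 gra1-D arrays. The 10 nearest measured loci around CNGC12, chosen after its value was seen, differed by -0.04 to 0.11 and none was called. Of 17 other loci of the channel family, likewise chosen afterwards, none was called and the differences ran from -0.11 to 0.24. The neighbouring and closely similar CNGC11 was not analysed here, and whether its transcript reaches the CNGC12 probes was not tested.

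NAC3 (AT3G29035), a NAC transcription factor also named ORS1 and known as a promoter of leaf senescence, was the second called locus. It read 6.27, 6.22 and 6.41 in gra1-D and 6.81, 6.79 and 6.81 in gra3-D, without overlap. Wild type lay between 6.68 and 6.70, and gra2-D between 6.71 and 7.03. The difference was 0.50 ± 0.082 (SE), or 1.42-fold (limma adjusted p = 0.0168). The difference stayed between 0.46 and 0.56 under all 19 alternatives, but the call did not always hold. It was lost without gra1-D replicate 1 (adjusted p = 0.102), without gra1-D replicate 2 (adjusted p = 0.127), and without gra3-D replicate 1, 2 or 3 (adjusted p = 0.0913, 0.0815 and 0.085). In both called loci it was gra1-D that differed from wild type, by -2.56 for CNGC12 and -0.39 for NAC3.

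**Figure D4:**
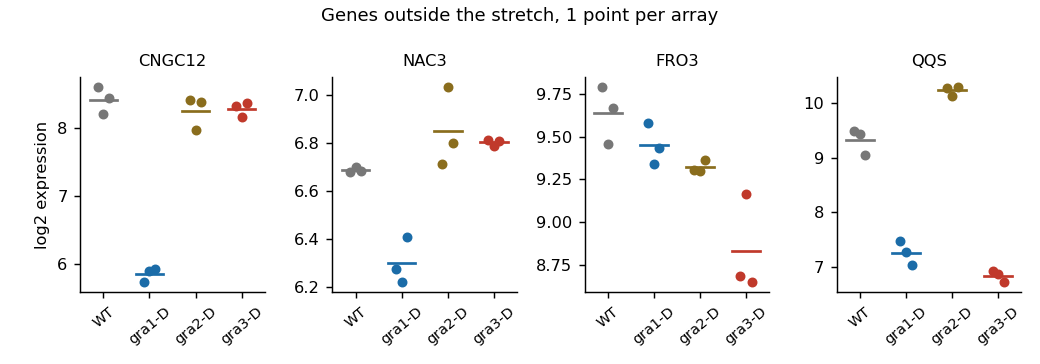
Log2 RMA level (vertical axis) of CNGC12, NAC3, FRO3 and QQS on each array, by group (horizontal axis); points are single arrays and bars are group means. CNGC12 is low on the 3 gra1-D arrays alone, and QQS is lower in gra1-D and gra3-D than in wild type and gra2-D.

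The next loci by the ratio of difference to SE did not pass. On the higher side in gra3-D, AT2G37130 read 5.03, 5.04 and 4.95 in gra1-D and 6.02, 6.07 and 5.66 in gra3-D. Its difference was 0.91 ± 0.20 (SE, limma adjusted p = 0.198). AT3G15760 followed at 0.41 and AT1G68110 at 0.37, the latter below 5 in both lines. On the lower side FRO3 (AT1G23020), a ferric reductase, read 9.58, 9.34 and 9.43 in gra1-D and 8.69, 9.17 and 8.65 in gra3-D. Its difference was -0.62 ± 0.13 (SE; limma adjusted p = 0.115), and gra3-D replicate 2 lay nearer to gra1-D than the other gra3-D arrays did. TSO2 (AT3G27060), a ribonucleotide reductase subunit, was at -0.39 ± 0.085 (SE; limma adjusted p = 0.199). AT4G12580, AT5G27890 and AT5G10770, at -0.31, -0.52 and -0.38, completed this group, the first below 5 in both lines.

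Apart from CNGC12, genes singled out in earlier results on these lines were not called between the 2. QQS (AT3G30720), a gene that affects starch content, read 7.47, 7.27 and 7.02 in gra1-D and 6.92, 6.87 and 6.71 in gra3-D, against 9.05 to 9.49 in wild type. The difference between the lines, -0.42 ± 0.13 (SE), did not pass (limma adjusted p = 0.795), although their arrays did not overlap. FLC (AT5G10140), the MADS-box repressor of flowering, had means of 4.45 and 4.56, both close to background, and differed by 0.11 ± 0.18 (SE).

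The responses seen elsewhere in the genome were compared through loci chosen on other arrays. Outside the raised segments 1820 loci were called between gra2-D and wild type, 526 higher and 1294 lower, a comparison that shares no array with the one between gra3-D and gra1-D. None of the 1820 was called between gra3-D and gra1-D, against 0.00965% of all loci outside the stretch. At an unadjusted p below 0.05 there were 99 (5.44%, against 3.62% outside the stretch). These were 39 of the 526 higher loci (7.41%) and 60 of the 1294 lower loci (4.64%). The confidence interval lay within 1.5-fold for 96.9% of them. With each locus signed by its direction in gra2-D, the median change from wild type was 0.28, 0.24 and 0.26 on the gra1-D arrays and 0.24, 0.27 and 0.24 on the gra3-D arrays. The means of 0.26 ± 0.018 and 0.25 ± 0.018 (SD, n = 3 each) differed by less than the spread between arrays. These levels are relative to the wild-type arrays that also helped to choose the loci, so their distance from 0 is not read as a response.

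**Figure D5:**
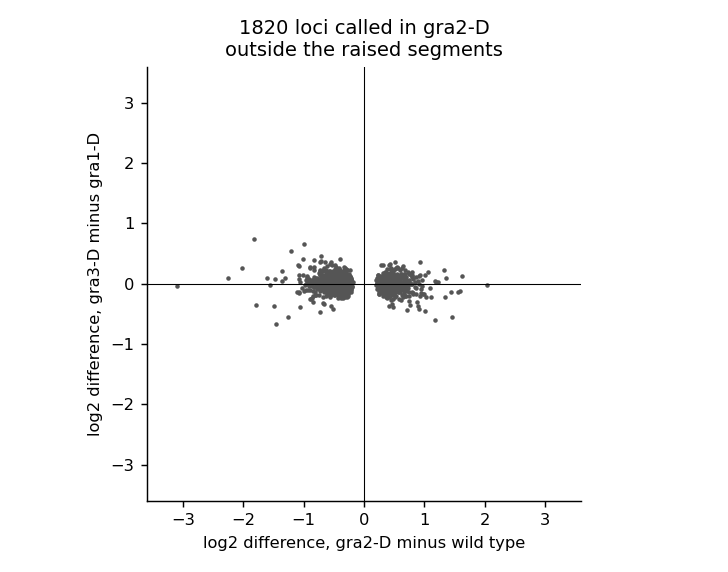
Log2 difference gra3-D minus gra1-D (vertical axis) against gra2-D minus wild type (horizontal axis) for the 1820 loci called between gra2-D and wild type outside the raised segments. The points spread along the horizontal axis and stay near 0 on the vertical one, with a median absolute difference of 0.065.

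Among the loci with the largest changes in gra2-D, the calcium-dependent kinase gene CDPK2 (AT1G35670) was 2.04 above wild type. It read 6.91, 7.11 and 6.86 in gra1-D and 7.06, 6.91 and 6.87 in gra3-D, overlapping and above the wild-type mean of 4.84. AT5G24240, 3.11 below wild type in gra2-D, read 4.65, 4.74 and 4.61 against 4.67, 4.58 and 4.64, again overlapping and below the wild-type mean of 8.08. PAP1 (AT1G56650), a MYB activator of anthocyanin synthesis, spread from 5.49 to 6.20 in gra1-D and from 5.04 to 6.31 in gra3-D, a difference of -0.13 ± 0.29 (SE). ACD6 (AT4G14400), an ankyrin protein of salicylate-linked defence, differed by -0.55 ± 0.36 (SE), with gra3-D replicate 1 low at 5.42. The azelaic acid response gene AZI1 (AT4G12470) differed by -0.12 and the actin-related gene ARP9 (AT5G43500) by 0.10. Differences for AT1G68600, AT1G80130, AT3G62950 and AT2G05540 ran from -0.13 to 0.27. AT1G16810 and AT3G02480 stood at 0.74 ± 0.47 (SE) and -0.36 ± 0.40 (SE), and all 12 loci overlapped between the lines.

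Pathway partners of the stretch genes were examined in 10 gene lists that each held 1 member of the stretch. Only that member was called in each list. None of the 151 measured partners outside the stretch was called, against 0.00965% of all loci outside it, and 7 had an unadjusted p below 0.05 (4.64%, against 3.62%). Their differences ran from -0.60 to 0.46 with a median of 0.014. Among 37 measured genes of mitotic kinases, the anaphase-promoting complex and the spindle checkpoint, AUR2, the close relative of AUR1, differed by -0.24 and SAMBA, a regulator of the complex, by 0.29. The median of the 36 genes other than AUR1 was -0.0016. The 25 brassinosteroid and coreceptor genes other than BAK1 had a median of -0.00031 and a range of -0.23 to 0.29. The 15 photorespiration genes other than GLDP1 ran from -0.09 to 0.16, and the 14 defence genes other than ADR1-L1 from -0.60 to 0.35, with medians of 0.028 and -0.011.

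Of the lists without a member in the stretch, 8 are taken here. The iron and nitrate lists, chosen after values were seen, are given at the end. None of the 96 measured genes of these 8 lists was called. Of the 96, 4 had an unadjusted p below 0.05 (4.17%, against 3.62% outside the stretch). The 28 leaf size regulators had a median of -0.017 and a range of -0.21 to 0.30. The 9 D-type cyclins ranged from -0.25 to 0.09 and the 14 circadian clock genes from -0.35 to 0.21. Tissue markers were level between the lines. The median level of 4 leaf markers was 14.03 to 14.10 in gra1-D and 14.05 to 14.09 in gra3-D, and that of 14 root markers was 4.29 to 4.35 and 4.12 to 4.36, close to background.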

How the data were processed

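Total RNA was labelled with biotin and hybridised to ATH1 arrays, per the labels' protocols. The authors deposited log2 values from RMA, per the submitters' processing notes, 1 value per locus and array. How probes were assigned to loci is not given in the sources used here. The columns were used without further normalization. Locus names came from the TAIR10.1 gene table of RefSeq, which matched 20508 of 20777 loci, 8945 of them with a symbol. No sequence was used. limma 3.58.1 in R 4.3.3 was fitted to 4 groups of 3 arrays without covariates (8 residual degrees of freedom), with eBayes and Benjamini-Hochberg adjustment over all loci, after a test on simulated data. A per-array shift is the median, over expressed loci of a segment, of the value minus the wild-type mean. From it the same median over expressed loci outside the raised segments was subtracted. No columns were identical.

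Genes named by rule were expressed loci of the stretch with a symbol or among the 3 largest or smallest differences, called loci outside it, the 5 largest ratios of difference to SE in each direction outside it, 3 each way in the shared arm, the 6 largest changes each way in gra2-D, members of lists, and a fixed set. The members, lists and rules were chosen with earlier results of these data known. Alternatives were a block on replicate number, the 6 arrays alone, quantile normalization, centring, a level filter, array weights, an intensity trend and leaving out each array. Deviations of same-numbered gra1-D and gra3-D arrays from their group means correlated at -0.18, 0.24 and 0.01. Those of gra1-D replicate 1 and gra3-D replicate 3 correlated at 0.26. Over loci outside the raised segments, same-numbered gra1-D and gra2-D arrays differed with an SD of 0.187, 0.179 and 0.195. The other pairs of these 2 lines gave 0.210 to 0.226. Whether arrays were handled in sets was not tested, and the main fit has no term for such sets.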

Additional observations from a re-analysis of the deposited data

Results flagged for a closer look

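Both loci called outside the stretch differed between the lines by a test of the difference itself. CNGC12 was 2.43 higher in gra3-D than in gra1-D on the log2 scale and was called under all 19 alternatives, where the difference ran from 2.37 to 2.49. NAC3 was 0.50 higher and was called in 13 of the 19. Why gra1-D was low for these loci was not tested.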

How the results depend on the processing

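The number of loci called outside the stretch was 2. It was 4 with the replicate block (3 higher and 1 lower in gra3-D; CNGC12, AT1G77960, NAC3 and NIA2), 1 with further quantile normalization (CNGC12; NAC3 adjusted p = 0.0574), and 1 to 4 when single arrays were left out. It was 1 without gra1-D replicate 2 and without gra3-D replicate 1 or 3. Without gra1-D replicate 3 it was 4, namely CNGC12, NAC3, AT1G31680 and AT1G31690. Without gra3-D replicate 2, FRO3 was called (limma adjusted p = 0.003) and NAC3 was not. AT2G37130 was called with the 6 arrays alone and without gra2-D replicate 1 or 2, and AT4G12580 with an intensity trend. Loci outside the stretch with a difference of at least 1.5-fold numbered 20, and 20 to 40 when single arrays were left out, with 33 without gra1-D replicate 1, 40 without gra1-D replicate 2, 34 without gra3-D replicate 2 and 39 without gra3-D replicate 3. The cause of these changes was not tested. Of the loci of the stretch, 39 to 44 passed under the alternatives. With arrays left out, the shift of the stretch was 0.90 to 0.92, (0.91 over 41 loci at 6 or above in wild type and gra1-D, a filter added after seeing the data), that of the shared arm -0.00068 to 0.014, and the median of the 1820 loci -0.014 to 0.0061. Among uncalled named genes, 27 of 1556 values changed sign, in 14 genes of main size up to 0.27. Loci below 5 give little resolution.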

Other observations

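Genes of iron handling, a list of 29 chosen after values were seen, had a median difference of -0.06, with 14 of the 24 measured lower in gra3-D and 10 higher. None was called by limma, against 0.00965% of loci outside the stretch. At an unadjusted p below 0.05 there were 10, 9 of them lower and 1 higher, against 3.62%, and 10 did not overlap between the lines, against 8.52%. Because the list was chosen on these values, the counts test nothing. The transcription factor gene bHLH39, an activator of iron uptake, read 9.37, 8.16 and 8.57 in gra1-D and 6.90, 8.01 and 6.88 in gra3-D. Its difference was -1.44 ± 0.40 (SE, limma adjusted p = 0.645). Its paralogue BHLH101 stood at -1.23 ± 0.36 (SE), with overlap. The iron sensor gene BTS was at -0.71, the transporter genes ZIF1, OPT3 and NRAMP4 at -0.68, -0.61 and -0.58, the regulator gene PYE at -0.64 and the reductase genes FRO3 and FRO8 at -0.62 and -0.30. The nicotianamine synthase gene NAS3 was at 0.70, and the largest rise on the list was 0.71. Most of the 10 higher genes are not named here. On gra3-D replicate 2 the values of bHLH39, BTS, FRO3, OPT3 and ZIF1 lay nearest to gra1-D among the gra3-D arrays. In gra2-D, bHLH39 averaged 7.98 against 9.20 in wild type.

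Of 14 nitrate assimilation genes, also chosen after values were seen, none was called, against 0.00965% of loci outside the stretch, and 3 had an unadjusted p below 0.05, all higher in gra3-D, against 3.62%. The median difference was 0.13. The nitrate reductase gene NIA2 read 10.95, 11.21 and 10.85 in gra1-D and 11.44, 11.55 and 11.26 in gra3-D, without overlap, a difference of 0.41 ± 0.099 (SE; limma adjusted p = 0.357). The nitrite reductase gene NIR1 was at 0.35 ± 0.084 (SE) and UPM1, which makes the sirohaem precursor, at 0.24 ± 0.089 (SE).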
